A study of Mus musculus with 6 samples.

Results

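The genes described carry symbols of the machinery that builds ribosomes and runs translation. They are ribosomal proteins, nucleolar assembly factors, subunits of RNA polymerases I and III, aminoacyl-tRNA synthetases, kinases, RNA helicases and host genes of small nucleolar RNAs. Some have other roles, among them the S6 kinase family and several helicases such as Ddx60. All were chosen by symbol alone (Rpl, Rps, Eif, Eef, Nop, Nol, Utp, Polr1, Polr3, Rrp, Ddx, Dhx, Ncl, Npm, Fbl, Gnl, Snhg, the synthetases and a few further assembly factors), and 32 of the 2744 genes in the deposited table carry such a symbol. RefSeq lists 353 protein-coding and long non-coding genes whose symbols match, and the others were not analysed here. The measurement was PRO-seq, in which engaged RNA polymerases add biotin-labelled nucleotides to the RNA they are making and the labelled RNA is sequenced. The cells were cKIT+ bone marrow progenitors of female C57/BL6 mice that were Mllt3 flox/flox and Rosa26Cre+, whose age the labels do not give. They were transduced with MLLT3 WT (3 libraries, called WT here) or with MLLT3 K63E K67E (3 libraries, called DM). Both groups were sorted, grown for 8 days in methylcellulose with cytokines and 200 nM 4-hydroxytamoxifen to delete the cells' own Mllt3, and run on for 3 min, and all 6 libraries belong to labelled batch 1. The labels do not say whether replicates were separate mice or cultures, so p-values measure the spread between these samples, which may be technical.

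A ribosome is assembled in the nucleolus. RNA polymerase I makes the long precursor of most ribosomal RNAs, and RNA polymerase III makes the smallest ribosomal RNA and the transfer RNAs. RNA polymerase II transcribes the genes of the ribosomal proteins and of the factors that cut, fold and chemically modify the RNA. Small nucleolar RNAs, which guide that modification, are mostly spliced out of introns of host genes that are themselves concerned with ribosomes or translation. Growing blood progenitors spend much of their transcription on this machinery, and MYC-family factors are known activators of many of its genes. MLLT3 (AF9) reads modified histones and brings elongation factors to RNA polymerase II.

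For each transcript 2 windows had been counted: a head of 330 bp that begins 30 bp upstream of the annotated start and holds promoter-proximal polymerase, and the body, the remainder of the transcript with its introns. Library totals ran from 15112853 to 22981603 reads, and values below are RPM, reads scaled to 1000000 of these totals, unless said otherwise. Every row in the table had an adjusted p under 0.05 for the body in the authors' deposited table, the largest 0.0498, so body differences are a description of rows selected on that same comparison. Head windows did not enter that selection directly. Mllt3 itself gave body values of 80.6, 77.2 and 95.3 RPM in WT and 58.4, 63 and 58.9 in DM, but both groups carry the induced deletion, so this does not check the WT and DM labels. Markers of several blood cell types differed between the groups: summed body RPM of the 8 stem and progenitor markers held of 12 listed was 2806 to 3584 in WT and 1725 to 1795 in DM, with 6 of 7 tested lower and 1 higher. For erythroid and megakaryocyte markers (4 held of 12, all lower) the sums were 197 to 223 and 107 to 125, and for mast and basophil markers (4 held of 9, all lower) 1447 to 2592 and 1108 to 1184. Myeloid markers (6 held of 14, 5 higher and 1 lower) summed to 204 to 256 in WT and 522 to 612 in DM, and no marker held was at 0. Kit, which defines the cell population, was at 1224, 1031 and 1543 RPM in WT and at 651, 667 and 654 in DM. The part of these differences in the results below was not tested, and in bulk libraries fewer cells of a type and less nascent RNA per cell cannot be told apart.

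In the body, 27 of the 32 genes were lower in DM and 5 were higher (edgeR's quasi-likelihood test, adjusted p between 0.000122 and 0.0239). Over all 2721 genes tested, 99.5% passed, 42.1% lower and 57.4% higher, and since the rows had been selected as changed, nothing is read from the members' count against these shares. The members' median log2 fold change (DM over WT) was -0.44, and the median of all genes was 0.40. Summed over the 32 genes, body reads were 1959, 1834 and 1754 RPM in WT and 1440, 1540 and 1424 in DM, so every WT library was above every DM library. The 27 lower genes alone gave 1673 ± 99.1 RPM in WT and 1184 ± 64.4 in DM, and the 5 higher genes 175 ± 16.5 and 284 ± 3.43 (SD, n = 3 each). These 27 and 5 genes were split by the sign of this same difference. The direction of each of their sums was therefore fixed in advance, and only the levels are described. The groups' libraries did not overlap for 25 lower and 5 higher genes, where all tested genes gave 38.3% and 57.3%, and they overlapped for Aars and Rps6ka5. Among the 32 members, all 8 ribosomal proteins, 3 nucleolar factors, 3 small nucleolar RNA hosts, 4 polymerase subunits and 3 synthetases were lower. The 5 higher genes were the kinases Rps6ka2, Rps6kc1 and Eif2ak4 and the helicases Ddx60 and Ddx31.

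**Figure D1:**
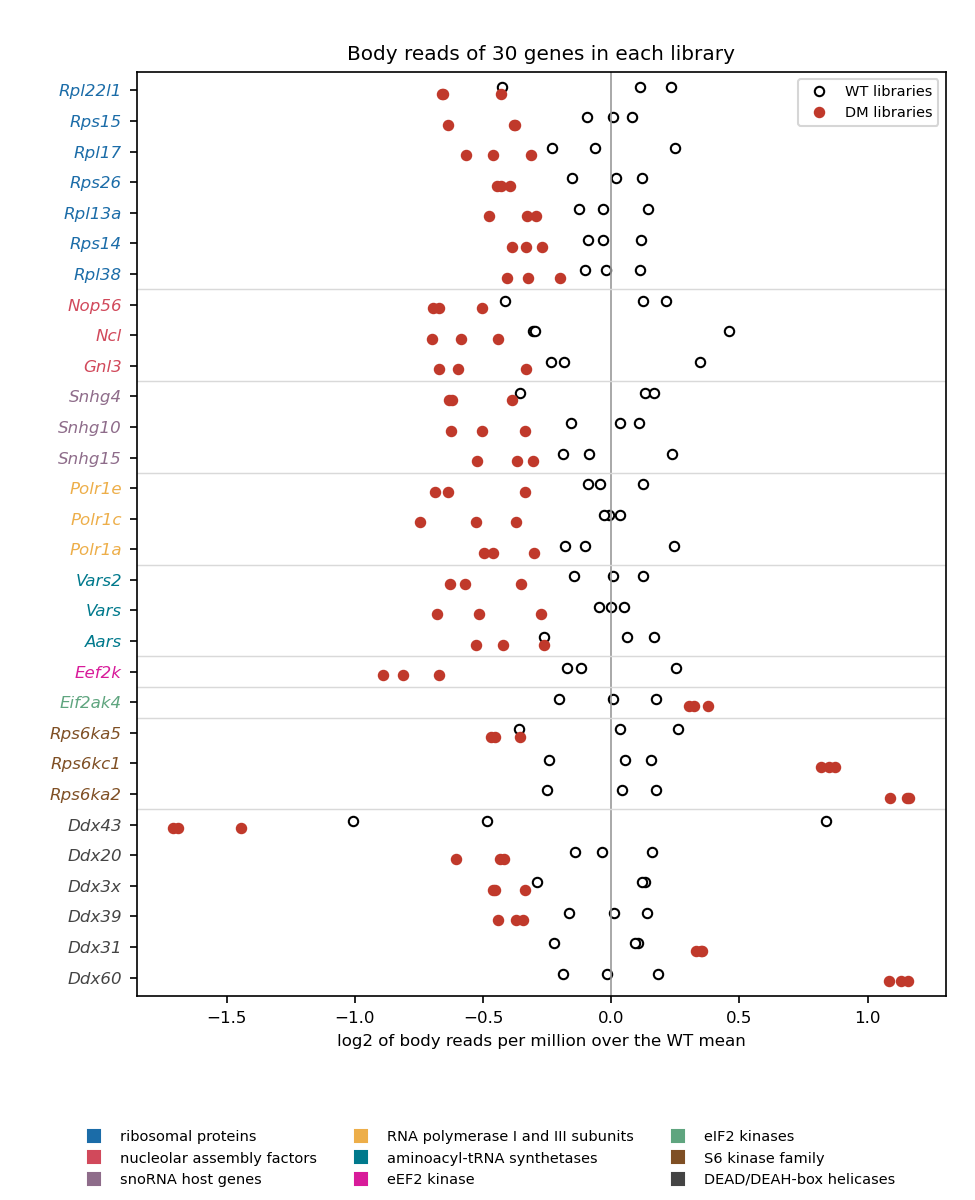
Each point is 1 library; the x axis gives log2 of body RPM over the WT mean of that gene, with WT libraries as open and DM libraries as filled circles and 30 of the genes ordered by role. DM libraries lie to the left of the WT libraries for 23 of these and to the right for 5.

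Scaling set the size of these differences. With TMM factors computed on the tested rows, the median of all genes was 0.18 in place of 0.40, and 84.5% of genes passed, 41.9% higher and 42.5% lower. On that scale 27 members were lower and 3 higher, with a median of -0.65. Ddx31 and Eif2ak4 kept a positive value but did not pass, at log2 fold changes of 0.13 and 0.12. Under the authors' own size factors 27 were lower and 5 higher, with a median of -0.47. Single libraries also mattered: without DM replicate 1, 14 members passed (11 lower, 3 higher), without DM replicate 3, 15 passed (12 lower, 3 higher), and no member changed sign in the body under any scaling or left-out library that was run.

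**Figure D2:**
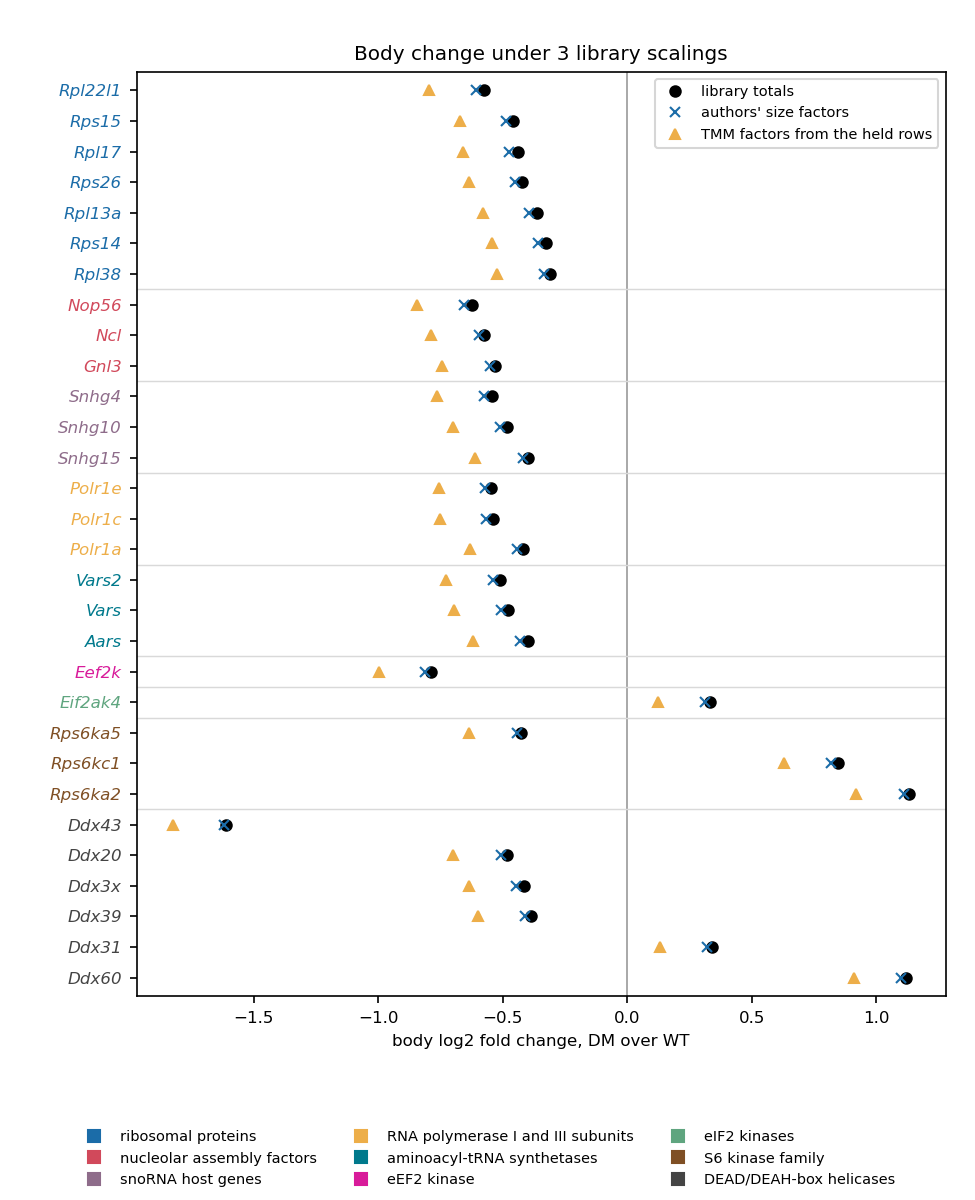
Body log2 fold change (DM over WT, x axis) of 30 of the genes with reads scaled by library totals, by TMM factors and by the authors' size factors. The median of all 32 is -0.44 with library totals, -0.65 with TMM and -0.47 with the authors' factors, and no gene crosses 0.

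Ribosomal proteins were the largest role group, and those described are Rpl13a, Rpl17 and Rpl38 of the large subunit, Rps14, Rps15 and Rps26 of the small subunit and Rpl22l1, a paralog of the large-subunit protein Rpl22. All 8 held were lower in the body, with a median log2 fold change of -0.43, and the 7 described lay between -0.58 and -0.31. Summed over all 8, body reads were 362, 410 and 345 RPM in WT and 268, 298 and 282 in DM, so the groups did not overlap. Of these sums the Rps14 row alone held 112, 124 and 108 RPM in WT and 87.7, 95.2 and 91.2 in DM. Its reads cannot be assigned to the ribosomal protein gene alone. In this class of genes the transcription start typically lies in a run of pyrimidines, the 5′ terminal oligopyrimidine tract through which translation of the mRNA is controlled. RefSeq promoter sequence was matched for 5 of the 8, and windows of 30 bases around the longest run near the RefSeq start are shown because all 5 hold one; capitals mark the run from the RefSeq start onwards.
Rpl13a: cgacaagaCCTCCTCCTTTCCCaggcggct
Rps15: agcccgtaCTTCCTTTTCCgagtaaccgcc
Rpl22l1: caagcccgTTCTCTTCCCacggctgcagct
Rps26: ccgccggaTCCTCTTTCgagtcttggctcc
Rpl38: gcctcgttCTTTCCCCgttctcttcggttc
These are GRCm38.p6 chr7:45128722-45128751 (minus strand), chr10:80292448-80292477 (plus), chr3:28805501-28805530 (plus), chr10:128626482-128626511 (minus) and chr11:114668572-114668601 (plus). The capitals are 14, 11, 10, 9 and 8 bases long and begin at bases 3, 26, 2, 4 and 1 from the RefSeq start. Only in Rpl38 do they begin at the start itself, and there further pyrimidines lie just upstream and were not counted. In Rps15 the run lies well inside the RefSeq transcript, but the row counted here starts at 80292453, within the window shown and just before the run. Whether any of the runs is such a tract was not tested. A run of at least 8 pyrimidines within the first 50 bases was found in 8 of the 25 members with a promoter entry (32%), in 13.7% of the table's genes and in 17.4% of all promoters, a search chosen after the data had been seen.

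Rpl22l1 (ENSMUSG00000039221.10, chromosome 3, 28805436 to 28807424, plus strand) had the largest difference of the 7, at 21.3, 19.6 and 13.5 RPM in WT and 11.5, 13.5 and 11.5 in the DM libraries. DM was 32.9% lower (log2 fold change -0.58 ± 0.19 SE, adjusted p 0.0159). WT replicate 3 lay beside the highest DM library, and the other WT libraries stood well above. Rps15 read 14.0, 15.8 and 15 RPM in WT and 9.63, 11.5 and 11.5 in DM, 27.2% lower and without overlap.

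Rpl13a (ENSMUSG00000074129.14, chromosome 7, 45125558 to 45128761, minus strand) was the most densely transcribed of the 32 genes per length, with a mean body RPKM (RPM per kb of window) of 23.6. Its body read 75.2, 85.1 and 70.5 RPM in WT and 55.3, 62.8 and 61.3 in DM, 22.2% lower and without overlap. Rpl17 read 33.5, 46.7 and 37.6 RPM in WT against 28.5, 31.6 and 26.5 in DM (26.3% lower). Rps26, mutated in some patients with Diamond-Blackfan anaemia, read 14.2, 17.2 and 16.0 RPM in WT and 11.7, 11.6 and 12 in DM (25.3% lower), again without overlap. The smallest differences were those of Rps14 (-0.33 ± 0.10 SE) and Rpl38 (-0.31 ± 0.10 SE). The Rps14 row spans 31.4 kb where the RefSeq gene spans 3.95 kb, overlaps Ndst1, and held only 7 to 20 head reads per library, so its reads cannot be assigned to the ribosomal protein gene alone. None of the 7 passed without DM replicate 1, and without DM replicate 3 Rps15, Rps26 and Rpl13a did. Ribosomal protein genes have many near-identical processed pseudogenes, and how reads that map to several places were treated is not given in the sources used here.

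Nucleolar assembly factors were represented by Nop56, a core protein of the box C/D particles that methylate ribosomal RNA, Ncl (nucleolin), which binds the ribosomal RNA precursor, and Gnl3 (nucleostemin), a nucleolar GTPase of proliferating stem and progenitor cells. All 3 were lower in DM. Nop56 (ENSMUSG00000027405.16, chromosome 2, 130274430 to 130279313, plus strand) read 73.8, 69.4 and 47.9 RPM in WT and 39.3, 44.9 and 39.9 in DM. No DM library reached the lowest WT library, and DM was 35.0% lower (log2 fold change -0.62 ± 0.16 SE, adjusted p 0.00715). Ncl read 182, 107 and 107 RPM in WT and 87.8, 97.1 and 81.2 in DM, and Gnl3 read 32.5, 22.6 and 21.8 in WT and 16.1, 20.4 and 16.9 in DM. In both, WT replicate 1 stood far above the other WT libraries, which were only slightly above DM. Without that library the log2 fold change of Ncl went from -0.57 to -0.27 and that of Gnl3 from -0.53 to -0.32. Ncl and Gnl3 no longer passed without DM replicate 1 or without DM replicate 3, while Nop56 did. The Nop56 row overlaps Idh3b and the Gnl3 row overlaps Glt8d1 and Pbrm1.

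Small nucleolar RNA host genes are spliced for the RNAs in their introns, and Snhg4, Snhg10 and Snhg15 were all lower in DM. Snhg4 read 216, 222 and 154 RPM in WT and 127, 151 and 128 in DM. The groups did not overlap, though WT replicate 3 was close to DM replicate 2, and the log2 fold change was -0.54 ± 0.15 SE. Snhg10 read 13.1, 15.8 and 15 RPM in WT and 9.50, 10.3 and 11.6 in DM, without overlap and 28.5% lower. Snhg15 read 38.9, 29 and 31.1 RPM in WT and 25.6, 26.7 and 23.0 in DM (24.1% lower), and its log2 fold change went from -0.40 to -0.26 without WT replicate 1. Snhg10 and Snhg15 did not pass without DM replicate 1, nor Snhg15 without DM replicate 3. The Snhg4 row spans 34.3 kb where RefSeq has 4.91 kb, and it overlaps Matr3, so its reads cannot be assigned to the host gene alone. By RefSeq, 9 of the 32 members (28.1%) hold a small nucleolar or related guide RNA gene, against 73 of all 2744 genes (2.66%). Besides the host genes these included Rpl13a, Rpl17, Ncl, Nop56 and Gnl3. The Snhg symbols in the rule name such hosts, so the members' share was partly fixed in advance. All 9 were lower, with a median log2 fold change of -0.53. The 18 lower members without one had -0.44, and the 5 higher members, left out of that median, held none. Of the 73 genes in the table with such an RNA, 39 (53.4%) were lower, these 9 among them. Over all 2721 genes tested 1158 were lower, and nothing is read from the count.

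RNA polymerase subunits included Polr1a, the largest subunit of polymerase I, Polr1e, another subunit of polymerase I, and Polr1c, shared by polymerases I and III. All 4 held were lower, with a median log2 fold change of -0.49. Polr1e (ENSMUSG00000028318.14, chromosome 4, 45018583 to 45036565, plus strand) read 27.5, 26.6 and 30.9 RPM in WT and 17.6, 22.5 and 18.2 in DM. The groups did not overlap, and DM was 31.5% lower (log2 fold change -0.55 ± 0.13 SE, adjusted p 0.00494). Polr1c read 9.92, 9.79 and 10.2 RPM in WT and 6.92, 7.72 and 5.96 in DM, and its WT libraries lay very close together. Polr1a read 75, 55.8 and 59.0 RPM in WT and 44.9, 51.3 and 45.9 in DM, and its log2 fold change went from -0.42 to -0.28 without WT replicate 1. Polr1c and Polr1a did not pass without DM replicate 1 or without DM replicate 3.

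Aminoacyl-tRNA synthetases load transfer RNAs with their amino acid. The 3 members were Vars, the cytosolic enzyme for valine, Vars2, its mitochondrial counterpart, and Aars, the cytosolic enzyme for alanine. All 3 were lower in DM. Farsb, a synthetase subunit whose symbol the rule does not take, was higher (log2 fold change 0.36) and is described with the pathway genes below. Vars read 49.0, 50.7 and 47.4 RPM in WT and 30.6, 40.5 and 34.3 in DM. The groups did not overlap, and DM was 28.3% lower (log2 fold change -0.48 ± 0.12 SE, adjusted p 0.00578). Vars2 read 11.6, 14.0 and 12.9 RPM in WT and 10.1, 8.31 and 8.66 in DM, also without overlap. Aars read 102, 110 and 81.6 RPM in WT and 68.0, 81.7 and 73.2 in DM, where WT replicate 3 and DM replicate 2 were level. Aars lost its call without WT replicate 2, DM replicate 1 or DM replicate 3, and Vars2 without DM replicate 2 or DM replicate 3.

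Kinases that act on translation moved in both directions. Eef2k, the kinase that phosphorylates elongation factor eEF2 and slows elongation, was lower in DM. It (ENSMUSG00000035064.17, chromosome 7, 120842831 to 120907450, plus strand) read 201, 209 and 270.0 RPM in WT and 129, 142 and 122 in DM. Every DM library was below every WT library by more than the spread within DM, at 42.1% lower (log2 fold change -0.79 ± 0.13 SE, adjusted p 0.00103), and the call held under every scaling, filter and left-out library. Eif2ak4 (GCN2), which phosphorylates eIF2 when amino acids are short, was the only gene with an Eif symbol in the table. It read 55.1, 47.6 and 61.8 RPM in WT and 71.3, 67.6 and 68.6 in DM, without overlap and 26.0% higher (log2 fold change 0.33 ± 0.11 SE, adjusted p 0.0197). That call was lost with TMM and DESeq2 scaling (values of 0.12 and 0.00266) and without DM replicate 1 or DM replicate 3, so it depends on the scale and on single libraries.

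The S6 kinase family was taken in by its Rps6k symbols and holds signalling kinases, not ribosomal proteins. Rps6ka2 (RSK3), a kinase downstream of ERK, was higher in DM (ENSMUSG00000023809.10, chromosome 17, 7170115 to 7303315, plus strand). Its row is 133 kb long where RefSeq has 214 kb, so it covers only part of the RefSeq gene. Its body read 46.6, 34.7 and 42.5 RPM in WT and 91.7, 92.2 and 87.7 in DM. The lowest DM library was above every WT library by a wide margin, a fold of 2.19 (log2 fold change 1.13 ± 0.12 SE, adjusted p 0.000122). Rps6kc1, a relative with a lipid-binding PX domain, read 39.0, 36.4 and 29.6 RPM in WT and 63, 61.7 and 64.2 in DM, 1.80-fold higher and without overlap (log2 fold change 0.85 ± 0.12 SE, adjusted p 0.000404). Its row is 212 kb long where RefSeq has 140 kb. Both kept their calls under each scaling and each left-out library, though DESeq2 put Rps6kc1 at 0.51. Rps6ka5 (MSK1), a nuclear kinase that phosphorylates histone H3 and CREB, went the other way, at 107, 81 and 125 RPM in WT and 81.3, 76.0 and 75.2 in DM. WT replicate 2 lay within the DM range, and Rps6ka5 did not pass without WT replicate 3 or any one of the DM libraries.

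DEAD-box RNA helicases unwind RNA, and the 6 held serve different steps. Ddx3x, which helps ribosomes scan structured leaders, Ddx39 (Ddx39a in RefSeq), which serves mRNA export, and Ddx20 (Gemin3) of the SMN complex were lower in DM. Ddx3x read 156, 154 and 116 RPM in WT and 112, 103 and 104 in DM, and Ddx39 66.1, 53.5 and 60.4 in WT and 47.3, 46.3 and 44.1 in DM. Neither pair of groups overlapped, at 25.0% and 23.5% lower, and Ddx3x lost its call without DM replicate 2 or DM replicate 3. Ddx20 read 11.6, 9.40 and 10.1 RPM in WT and 7.75, 7.67 and 6.81 in DM, and it was the one member that lost its call with the replicate number as a block. Its call was also lost when any one of the DM libraries was left out. Ddx43, a helicase best known from testis and tumours, had the lowest body level per length of the 32 genes, at 0.0546 RPKM. It read 4.05, 1.12 and 1.62 RPM in WT and 0.832, 0.692 and 0.701 in DM, with as few as 14 reads in a library. Its log2 fold change of -1.61 ± 0.51 SE rested on WT replicate 1 and was -0.90 without it, and it did not pass without DM replicate 2 or DM replicate 3.

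Ddx60 and Ddx31 were the helicases that were higher in DM. Ddx60, an interferon-induced gene of antiviral defence (ENSMUSG00000037921.15, chromosome 8, 61928087 to 62038244, plus strand), read 5.22, 4.63 and 5.99 RPM in WT and 11.8, 11.2 and 11.6 in DM. The groups were far apart, a fold of 2.17 (log2 fold change 1.12 ± 0.18 SE, adjusted p 0.00085), and the call held under each alternative. Ddx31, a nucleolar helicase that takes part in ribosome assembly, read 42.1, 33.5 and 41.7 RPM in WT and 50.0, 49.2 and 49.8 in DM, 26.7% higher without overlap. Like Eif2ak4 it did not pass with TMM or DESeq2 scaling, or without DM replicate 1 or DM replicate 3.

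Other genes of the pathway were taken from a list of 132 symbols outside the rule above, of which 11 were in the table. In the body 8 of the 11 were lower and 3 higher, with a median log2 fold change of -0.34, on rows selected for this comparison, of which 99.5% passed (42.1% lower, 57.4% higher), so nothing is read from the count. Without DM replicate 1 and without DM replicate 3, 5 and 4 of the lower genes passed. Mycn, a MYC-family activator of ribosome biogenesis that is also on the stem and progenitor marker list, read 58.9, 41.9 and 36.8 RPM in WT and 19.5, 21.8 and 16.5 in DM. The lowest WT library was well above the highest DM library, at 58.0% lower (log2 fold change -1.25 ± 0.19 SE, adjusted p 0.000565). Pdcd4, an inhibitor of the initiation helicase eIF4A, was lower by a log2 fold change of -0.71, Ppan, a factor of large-subunit assembly, of -0.58, and Ruvbl1, an ATPase that helps assemble box C/D particles, of -0.45. Rcl1, Bms1, Ruvbl2 and Exosc10 were lower by between -0.44 and -0.24. Senp3, a nucleolar SUMO protease, was higher at 26.3, 24.7 and 24.3 RPM in WT and 39.2, 35.1 and 39.3 in the DM libraries (log2 fold change 0.59 ± 0.10 SE). Riok3, an atypical kinase of small-subunit maturation, was higher by 0.45 ± 0.11 SE, and Farsb, a subunit of the phenylalanine synthetase, by 0.36 ± 0.13 SE. With TMM these values were 0.24 and 0.15, and Farsb did not pass. With DESeq2 only 1 of the 3 higher genes passed. Myc was not analysed here.

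Promoter-proximal polymerase differed less clearly. In the head window 2 of the 32 genes passed the threshold, 1 lower and 1 higher, where 20.3% of the 2579 genes tested passed (10.7% lower, 9.62% higher). At an unadjusted p under 0.05 there were 4 members, 3 lower and 1 higher, and 960 of the 2579 genes, 559 lower and 401 higher. The number past the adjusted threshold was 5 with TMM, 7 with DESeq2, 1 with the authors' size factors, 5 without WT replicate 1 or WT replicate 2, 1 without WT replicate 3 and 0 without any one of the DM libraries. By sign 28 were lower and 4 higher, with a median log2 fold change of -0.21, beside 1511 of 2579 genes lower and a median of -0.11 over all. The groups did not overlap for 9 lower and 2 higher members (23.4% and 18.1% of all genes tested). Summed head reads of the members were 526, 666 and 518 RPM in WT and 440, 495 and 453 in DM, so the groups did not overlap, with WT replicate 2 highest.

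Rps6ka2 and Ddx43 were the genes that passed in the head. Rps6ka2 read 4.18, 4.43 and 4.06 RPM in WT and 6.70, 7.32 and 7.16 in DM. The libraries within each group were close and the groups well apart (log2 fold change 0.74 ± 0.24 SE, edgeR adjusted p 0.0435), but the call was lost under the authors' size factors, with a mean of at least 50 counts asked for, and without WT replicate 3 or any one of the DM libraries. Ddx43 read 2.13, 3.84 and 2.19 RPM in WT and 1.23, 0.594 and 0.951 in the DM libraries, from 12 to 58 reads a library (log2 fold change -1.52 ± 0.37 SE, edgeR adjusted p 0.0141). It did not pass when any one of the DM libraries was left out. Mycn also fell in the head, at 37.1, 45.9 and 39.6 RPM in WT and 14.4, 18.8 and 13.6 in the DM libraries (log2 fold change -1.39 ± 0.25 SE, edgeR adjusted p 0.00542), and Senp3 rose by 0.79 (edgeR adjusted p 0.0303), the others of the 11 pathway genes not passing. Mycn lost this call without DM replicate 1, and Senp3 under the authors' size factors and without WT replicate 3 or any one of the DM libraries.

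All 8 ribosomal protein genes had a negative head value, from -0.72 to -0.13 with a median of -0.45, and none passed. Rpl13a heads read 55.5, 71.9 and 54.0 RPM in WT and 40.6, 49.4 and 42.6 in DM, without overlap and with WT replicate 2 far above the rest (log2 fold change -0.45 ± 0.23 SE, edgeR adjusted p 0.164). Rps15 heads, at 14.8, 24.5 and 16.3 RPM in WT and 16.1, 18.4 and 15.7 in DM, overlapped. Its value turned from -0.14 to 0.11 without WT replicate 2, so the sign of that gene rested on 1 library. Nop56 heads were level, at 40.6, 42.1 and 42.4 RPM in WT and 41.9, 41.3 and 39.4 in the DM libraries (log2 fold change -0.03 ± 0.22 SE), beside its body difference of -0.62. In the authors' deposited table, which merges the libraries of a group, head and body were both lower in DM for 26 members and both higher for 3, beside 1131 and 1138 of all 2744 genes. Head was lower and body higher for Ddx31 and Eif2ak4 (426 of all genes), and head higher and body lower for Polr1a (49 of all genes), whose head held only 24 to 37 reads per library.

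**Figure D3:**
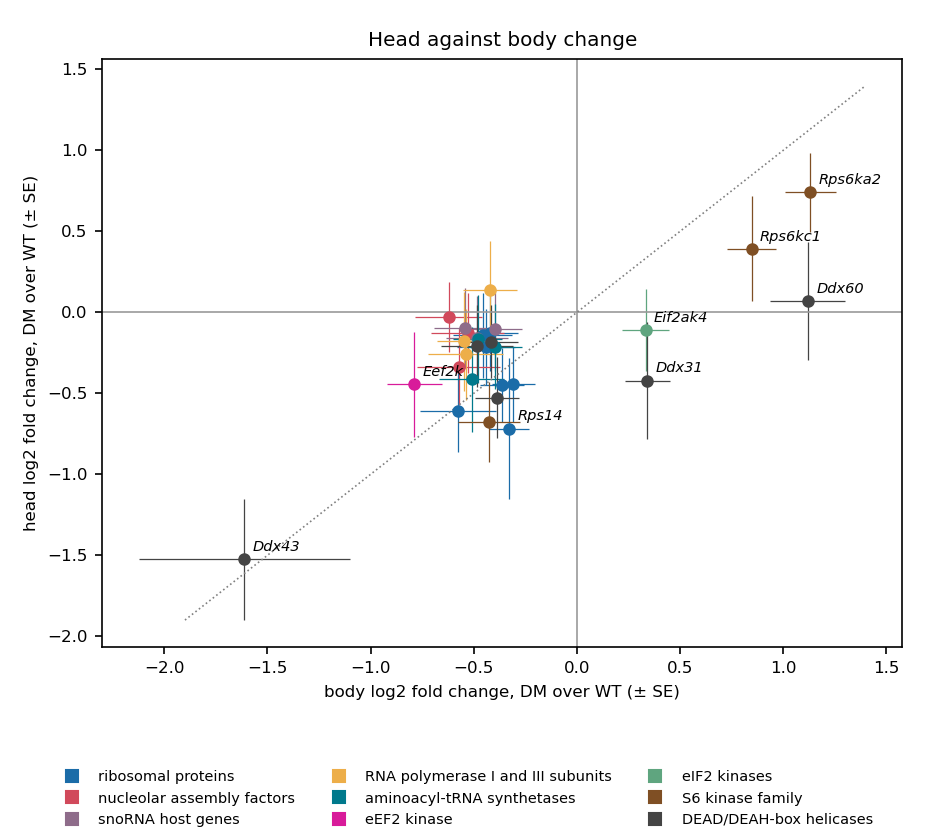
Head log2 fold change (y axis) against body log2 fold change (x axis), DM over WT, for 30 of the genes coloured by role, with bars of 1 SE and a dotted line where both are equal. Most points lie below and to the left of 0, with a head median of -0.21 and a body median of -0.44 over all 32, and Ddx43 and Rps6ka2 are the genes past the head threshold.

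Whether head and body changed unequally was asked by the interaction of window and group. None of the 32 genes passed (0 by edgeR and 0 by DESeq2; 2 at an unadjusted p under 0.05, beside 395 of 2577 genes), where 0.0776% of the 2577 genes tested did. The members' median was 0.21, so head over body was on the median higher in DM, beside -0.26 for all genes; this ratio contains the body reads by which rows were selected. The smallest p belonged to Ddx60 (-1.02 ± 0.40 SE, edgeR adjusted p 0.275), Nop56 (0.57 ± 0.26 SE, edgeR adjusted p 0.325) and Polr1a (0.55 ± 0.30 SE, edgeR adjusted p 0.368). Per 100 body reads of the members, the WT libraries held 26.8, 36.3 and 29.5 head reads and the DM libraries 30.6, 32.1 and 31.8, so the DM libraries lay within the WT range. Over all genes of the table WT had 13.4, 23.7 and 14.9 and DM had 12.7, 14.5 and 13.8, with WT replicate 2 highest in both.

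On the median the members had a shorter and more densely transcribed body than all genes, though not every member did: the S6 kinase family and Ddx60 were long, and Ddx60 and Ddx43 sparsely transcribed. Their median body length was 13.6 kb, against 33.5 kb for all genes, and their median body RPKM 3.35 against 1.01. Head density was also higher, at a median of 31.0 against 17.8 RPKM, while head over body density was lower, at 10.3 against 17.0. Ribosomal proteins were at the far end, with a median body of 2.3 kb and 10.5 RPKM. The 27 lower members had a median body of 11.4 kb and 4.64 RPKM, and the 5 higher members one of 110 kb and 0.496 RPKM. Length and direction went together over the table as well, in bands chosen after the data had been seen. Up to 6 kb, 11 of 11 members and 50.6% of all genes had a lower body; from 6 to 25 kb these were 9 of 9 and 48.1%. From 25 to 100 kb they were 6 of 8 and 38.9%, and above 100 kb 1 of 4 and 37.5%. The exception among the longest was Rps6ka5. The part of length in the members' direction was not tested. By RefSeq, 8 members (25.0%) overlap another protein-coding gene, against 17.2% of all genes: among them, Aars overlaps Exosc6, Ddx39 overlaps Adgre5 and Polr1e overlaps Fbxo10. Whether counting used the strand is not given in the sources used here, so reads of such partners cannot be told apart.

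**Figure D4:**
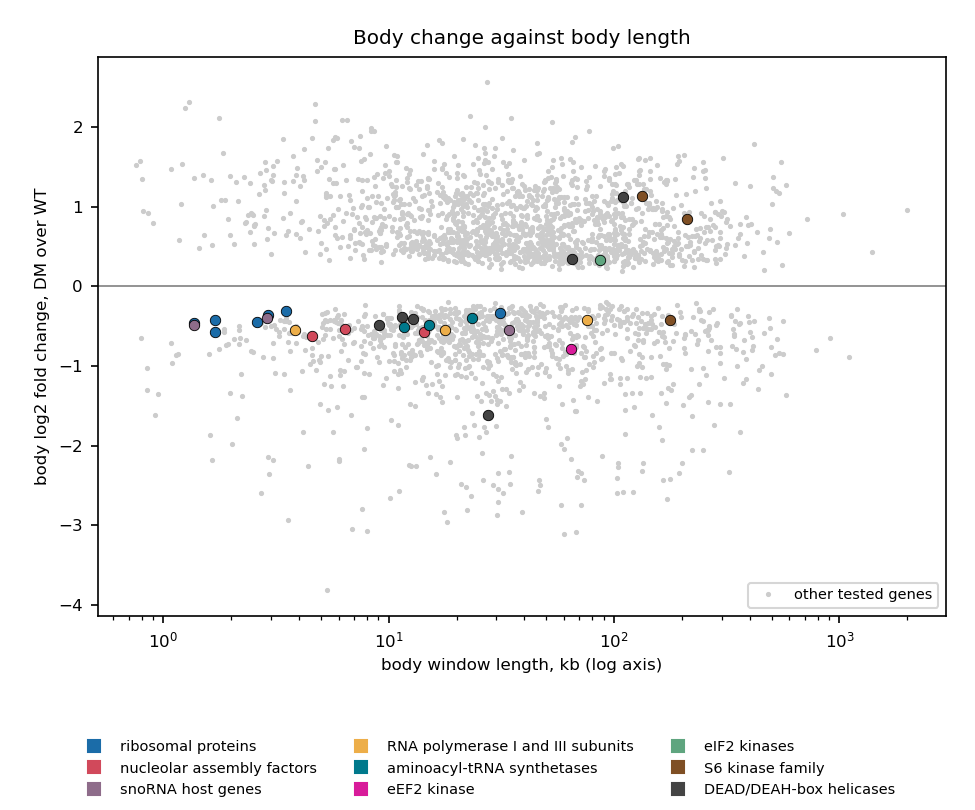
Body log2 fold change (DM over WT, y axis) against body length in kb on a log axis. Tested genes that are not members are in grey and 30 of the members in colour. The 19 of these up to 25 kb lie below 0, and the 5 higher members lie between 64.8 and 211 kb.

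Promoter windows from RefSeq (GRCm38.p6, 250 bases before to 50 after the start) were matched for 25 of the 32 genes. The E-box CACGTG, the letters bound by MYC-family dimers and other factors, was present in 4 of the 25 (16.0%), in 10.7% of the table's genes and in 7.15% of all promoters. The GC box GGGCGG or its complement was in 20 (80.0%), with 69.2% of the table's genes and 35.7% of all promoters. CCAAT on either strand was in 9 (36%), with 35.7% and 37.4%, and the 10-base palindrome of NRF1 in 0 of 25, with 1.34% and 0.971%. The 4 genes with an E-box were Aars, Eef2k, Rpl13a and Snhg15. All 4 were lower in the body, as were 27 of the 32 members and 42.1% of all genes tested, so nothing is read from this. The upstream part of the promoter is shown for the 3 with the motif before the start, since they include the ribosomal protein of highest density and the kinase with the clearest decrease; capitals mark CACGTG.
Aars: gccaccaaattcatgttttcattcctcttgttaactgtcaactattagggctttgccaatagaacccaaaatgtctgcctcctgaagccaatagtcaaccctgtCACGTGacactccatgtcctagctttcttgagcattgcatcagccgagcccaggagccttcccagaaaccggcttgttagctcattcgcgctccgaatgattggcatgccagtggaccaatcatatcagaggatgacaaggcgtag
Eef2k: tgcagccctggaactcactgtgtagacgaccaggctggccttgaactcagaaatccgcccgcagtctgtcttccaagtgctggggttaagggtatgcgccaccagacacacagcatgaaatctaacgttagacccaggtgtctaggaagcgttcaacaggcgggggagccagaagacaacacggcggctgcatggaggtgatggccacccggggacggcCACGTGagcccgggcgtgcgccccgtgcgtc
Rpl13a: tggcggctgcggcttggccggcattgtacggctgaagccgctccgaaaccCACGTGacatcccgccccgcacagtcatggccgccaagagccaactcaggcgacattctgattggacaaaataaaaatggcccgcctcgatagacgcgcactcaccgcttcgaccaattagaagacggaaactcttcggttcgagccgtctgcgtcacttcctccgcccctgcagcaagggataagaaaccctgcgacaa
These are chr8:111033592-111033841 (plus strand), chr7:120842581-120842830 (plus) and chr7:45128746-45128995 (minus) of GRCm38.p6. The motif begins at positions -146, -31 and -200 from the RefSeq start. A match in letters is a description and shows no binding.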

How the data were processed

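PRO-seq was analysed from 1 table of 6 libraries, 3 WT and 3 DM. Raw read counts for head and body windows and a library total were deposited by the authors, and RPKM values deposited by the authors were recomputed from them. The log2 fold changes, p-values and mean signal of the body comparison were deposited by the authors, and size factors were recovered from that signal. Per the submitters' processing notes, cutadapt, Trimmomatic, Bowtie 1.1.2, MACS2, bedtools 2.28 and the builds mm10 and dm3 are listed, with no role stated; strand use, multiply mapped reads and the annotation release are not given in the sources used here.

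Each gene is represented by its transcript with most body reads on average. Counts were tested on the whole table with edgeR 4.0.16 (quasi-likelihood, filterByExpr, limma 3.58.1, R 4.3.3), scaled by library totals, adjusted by Benjamini-Hochberg over all tested genes, with a threshold of 0.05; the head to body interaction used the library as a block. Adjusted p-values in the report are from this test, and SE is on the log2 scale. Members, lists and the scaling were chosen with earlier results of these data known. Genes were named as, per role, the highest body RPKM and up to 4 largest body changes each way without overlap and with at least 50 counts, plus those past the head threshold or of smallest ratio p; Rps14, Rps26 and Rpl38 were added to describe more of the ribosomal proteins, as were Rcl1, Bms1, Ruvbl2 and Exosc10 of the pathway list. Motifs were searched on both strands. Alternatives were DESeq2 1.42.0, TMM, the authors' size factors, other filters, a stricter threshold, a replicate block, the longest row and each library left out. The procedures were tested on simulated data in which most genes were unchanged. That setting is unlike this table, where 99.5% of the genes tested passed in the body. With 3 against 3 an exact permutation test cannot go below 0.1, so none is given. Some members are counted in totals and medians but are not reported here by name or in the plots.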

Additional observations from a re-analysis of the deposited data

How the results depend on the processing

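For the 32 genes in the body, all 32 passed with library totals and 27 were lower. At an adjusted p under 0.01, 10 passed (7 lower, 3 higher), and TMM and DESeq2 each left 3 higher. Leaving out 1 library gave from 14 to 32 in all, from 11 to 27 lower and from 3 to 5 higher, the lowest without DM replicates 1 and 3. In the head, where 2 passed, TMM gave 5 (4 lower), DESeq2 7 (6 lower), the authors' size factors 1 (0 higher), and a mean of at least 50 counts and an adjusted p under 0.01 gave 0 each. Leaving out 1 library gave from 0 to 5 (0 to 4 lower, 0 to 2 higher). For the ratio, 0 members passed in every alternative run. Of the pathway genes, TMM left 2 and DESeq2 left 1 higher in the body. Leaving out 1 library gave from 4 to 8 lower in the body, and 0 to 4 lower and 0 to 1 higher in the head. In the head the authors' size factors gave 0 higher, and TMM and DESeq2 gave 4 lower each. Median body values with TMM and DESeq2 were -0.65 and -0.76 for ribosomal proteins, -0.70 and -0.82 for polymerase subunits, -0.69 and -0.81 for synthetases, -0.70 and -0.82 for small nucleolar RNA hosts and 0.63 and 0.51 for the S6 kinase family, and DESeq2 gave -0.74 for helicases; these methods scale on the selected rows.

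Some signs in the head rested on 1 library. Leaving out 1 library in turn, the median ran from -0.40 to 0.0927 for the polymerase subunits and from 0.16 to 0.75 for the S6 kinase family. Single genes ran from -0.36 to 0.22 for Polr1e, from -0.46 to 0.024 for Polr1c, from -0.28 to 0.11 for Rps15, from -0.74 to 0.069 for Ddx31, from -0.68 to 0.048 for Vars2 and from -0.22 to 0.049 for Farsb, each positive without WT replicate 2 (Farsb also without DM replicate 3). Ddx60 ran from -0.14 to 0.45, negative without WT replicates 1 or 3 or DM replicate 1. Snhg15 ran from -0.24 to 0.060 (positive without WT replicate 1) and Snhg10 from -0.26 to 0.011 (positive without DM replicate 1). Nop56 turned to 0.014 under TMM and 0.010 under DESeq2. The cause was not tested. With the replicate number as a block, 31 members passed in the body (Ddx20 lost), 2 were lower in the head and 3 pathway genes were lower in the head. Same-numbered libraries did not deviate together in the body for replicates 1 and 2 (correlations -0.07 and -0.17), but those of replicate 3 did (0.44). The mean was 0.066, and the number was not taken as a pairing. Whether the replicate 3 libraries share an effect was not tested. Low head counts limit Rps14, Polr1a, Ddx60 and Ddx43.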
